A study of Homo sapiens with 8 samples.

Results

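Accessible regions at 8 genes of telomere maintenance were examined in lists of ATAC-seq peaks from U2OS cells. ATAC-seq marks open chromatin through the transposase Tn5, which inserts sequencing adapters where DNA is free. The genes were TERT and TERC, which encode the protein and the RNA of telomerase, and 6 genes related to alternative lengthening of telomeres (ALT), namely ATRX, DAXX, SLX4IP, SMARCAL1, PML and SP100. A region was taken when its interval overlapped one of these genes extended by 5 kb on each side. This gave 514 of the 1440417 regions of all 8 lists, or between 52 and 81 regions in a list, at 8 of 19971 genes analysed.

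U2OS is 1 human osteosarcoma line. It was compared as wild-type (WT) cells and as cells with a disrupted ASH1L gene (ASH1L-/-), which encodes a histone methyltransferase and had been edited with CRISPR-Cas9. Cells of either genotype were unchallenged, without UV light, or had received UV-C light, 20 J on each square metre, and were collected 3 h later (3 h post UV). Each of the 4 groups had 2 libraries, made from independent experiments, and peaks had been called in each library separately. The knockout is thus compared within this line only, and a peak at a promoter does not check the disruption: ASH1L itself had a promoter region in all 8 lists, at percentiles 81.1 to 97.6.

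Telomerase copies its RNA template onto chromosome ends, and TERT is silent in most somatic cells. Tumours without telomerase, U2OS among them, keep their telomeres by ALT, a form of recombination between telomeres that is often seen together with the loss of the ATRX-DAXX histone H3.3 chaperone. SLX4IP and SMARCAL1 act on the branched or stalled DNA structures that arise in this process, and PML and SP100 are constituents of the nuclear bodies in which ALT telomeres gather. Which of these genes carried accessible promoters, and whether UV light or the loss of ASH1L changed them, was asked of the 8 lists.

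The lists held between 158198 and 220783 regions. They carry no read counts, but their depth relative to each other was recovered as a genome-wide mean pileup, which was between 1.39 and 5.87. Replicate 2 of the unchallenged ASH1L-/- cells was the shallowest library and replicate 1 of the same group the deepest. Fold enrichment, the pileup at a summit over the local background of the same library, is comparable within a list only. Each region was therefore described by its percentile of fold enrichment among all regions of its list, where 100 is the strongest and 0 stands for no region. Of 5 genes of the mesenchymal or osteoblast lineage, 4 had a promoter region in all 8 lists and COL1A2 had one in 7. Among markers of other cell types, EPCAM, CDH1 and SOX2 were accessible in all 8 lists, CD3E in none, and PTPRC and ALB in 1 list each. At the canonical TSS alone, CDH1 had no region in any list.

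The promoters of the telomerase genes lacked regions where those of the ALT-related genes had them. A region within 1 kb of any annotated transcription start site (TSS) was present in all 8 lists for ATRX, DAXX, SLX4IP, SMARCAL1, PML and SP100. TERC had none in any list, and TERT had 1, in replicate 1 of WT cells 3 h post UV. Of all 19970 protein-coding genes, 67.6% had a promoter region in all 8 lists and 11.8% in none. At the canonical TSS alone, TERT and TERC were without a region in all 8 lists and the other 6 genes had one in all 8, against 59.1% and 17.6% of protein-coding genes with a region in all lists and in none.

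**Figure D1:**
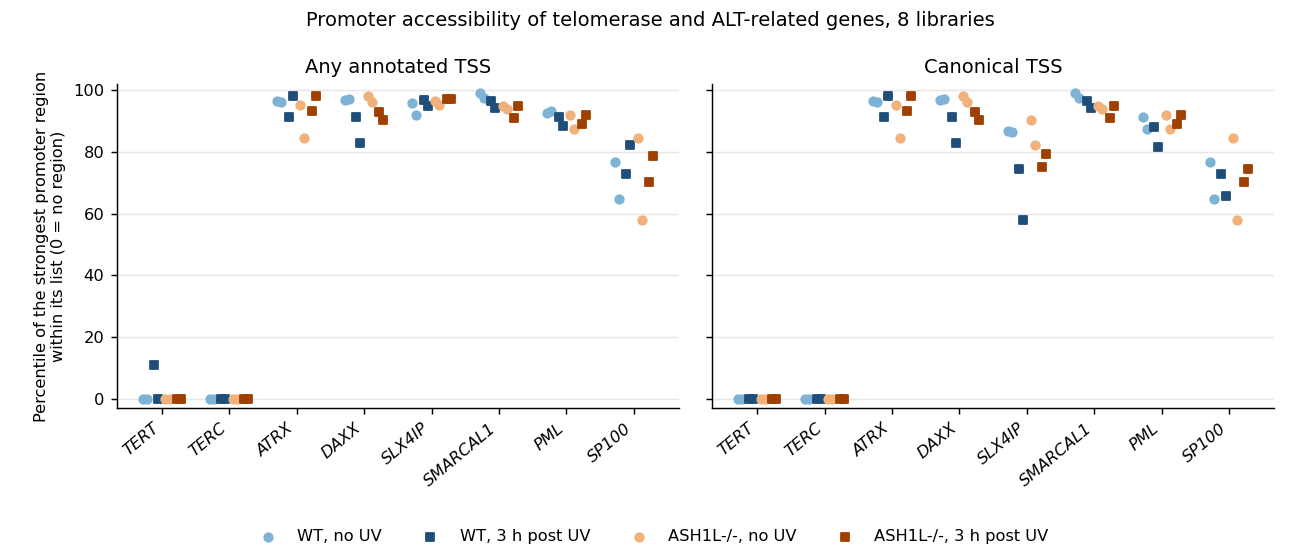
Percentile of the strongest promoter region of each gene within its list (y axis, 0 for no region) in the 8 libraries, 1 point per library, for any annotated TSS (left) and the canonical TSS (right). TERT and TERC lie at 0 except for 1 point at 11, and the points of the 6 ALT-related genes lie between 57.8 and 99.2.

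The sequences upstream of the genes show how unlike these promoters are in base composition. Below are the 250 bases before the start of the RefSeq transcripts of TERT, SLX4IP, SMARCAL1 and SP100 on GRCh38.p14, 5′ to 3′ in the direction of transcription. These 4 of the 8 genes matched the promoter table. Capitals mark the GC box GGGCGG, or CCGCCC on the other strand, a motif bound by SP1.
TERT (chr5:1295069-1295318, minus strand): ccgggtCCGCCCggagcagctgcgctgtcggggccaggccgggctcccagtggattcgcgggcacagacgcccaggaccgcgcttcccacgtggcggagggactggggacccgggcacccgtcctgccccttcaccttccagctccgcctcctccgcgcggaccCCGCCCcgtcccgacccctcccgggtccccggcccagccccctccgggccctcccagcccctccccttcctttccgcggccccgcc
SLX4IP (chr20:10435055-10435304, plus strand): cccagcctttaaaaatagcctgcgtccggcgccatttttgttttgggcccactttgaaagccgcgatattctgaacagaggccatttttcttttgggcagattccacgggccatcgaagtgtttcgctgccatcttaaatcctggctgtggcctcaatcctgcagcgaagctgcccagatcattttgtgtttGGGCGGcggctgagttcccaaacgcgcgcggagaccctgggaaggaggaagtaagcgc
SMARCAL1 (chr2:216412234-216412483, plus strand): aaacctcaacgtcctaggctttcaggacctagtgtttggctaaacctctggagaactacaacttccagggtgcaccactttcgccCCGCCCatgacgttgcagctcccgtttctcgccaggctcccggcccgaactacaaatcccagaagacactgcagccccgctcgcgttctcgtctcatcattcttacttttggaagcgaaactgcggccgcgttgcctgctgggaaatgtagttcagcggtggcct
SP100 (chr2:230415951-230416200, plus strand): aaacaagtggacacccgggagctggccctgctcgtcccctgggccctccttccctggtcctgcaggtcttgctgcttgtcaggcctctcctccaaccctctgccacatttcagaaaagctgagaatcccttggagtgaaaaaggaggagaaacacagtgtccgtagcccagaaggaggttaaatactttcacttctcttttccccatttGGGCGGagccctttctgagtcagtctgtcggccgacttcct
TERT held 2 GC boxes in a sequence of 78.8% GC, and the other 3 sequences held 1 each at 54.4%, 56.4% and 55.2% GC. The table has a second promoter for SMARCAL1 (65.2% GC) and for SP100 (43.2% GC), not printed here, and both had 0 GC boxes. In 42.6% of the 35116 promoters of the table at least 1 GC box was found. The E-box CACGTG, a palindrome that MYC can bind, occurred once upstream of TERT, once in the second promoter of SP100 and in 6.34% of all promoters.

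TERT (ENSG00000164362.21) is encoded by the minus strand of chromosome 5, positions 1253147 to 1295068. The nearest region to its canonical TSS was 1.18 to 3.40 kb away in the 8 lists. The single promoter region, at 1264899 to 1265062 beside an internal TSS 30.1 kb into the gene, had a fold enrichment of 2.47 and stood at percentile 11. It was absent at a q-value of 0.01 or below, where TERT had no promoter region in any list. The window of TERT was not empty. It held between 5 and 9 regions in a list, but of its 61 regions over all lists only 14.8% stood above percentile 50, whereas between 50% and 100% did in the windows of the other 7 genes. Of 38 union sites, which join the overlapping regions of all lists, 26 occurred in 1 list (68.4%) and none in all 8. Over the genome these shares were 60.5% and 11%, and in the window of SMARCAL1 81.8% of sites occurred in 1 list.

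One site of TERT recurred. It lies in an intron, 26.2 kb downstream of the canonical TSS, and was found in 7 of 8 lists. Its sequence around the summit (chr5:1268800-1268949, hg38, plus strand) is shown because it is the only TERT site found in more than 4 lists. Capitals mark TGANTCA, a looser form of TGACTCA, the core recognised by AP-1 factors. The stretch marked here reads TGAATCA and is not that core.
TERT intron site: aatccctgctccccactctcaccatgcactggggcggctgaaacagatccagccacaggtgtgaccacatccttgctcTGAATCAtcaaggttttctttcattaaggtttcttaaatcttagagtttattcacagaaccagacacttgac
In unchallenged WT cells it was absent in replicate 1 and stood at percentile 90.4 in replicate 2, and in unchallenged ASH1L-/- cells it stood at 88.4 and 79.0. After UV it stood at 67.5 and 64.5 in WT cells and at 37.6 and 27.5 in ASH1L-/- cells. The 3 highest values were thus those of unchallenged libraries, and the remaining unchallenged library had no region. TGANTCA was found within the same distance of the summit in 7.91% of the 177 union sites of the 8 windows and in 7.55% of all 547779 union sites. For TGACTCA on either strand these shares were 3.39% and 4.85%.

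TERC (ENSG00000270141.3), a non-coding RNA gene of the minus strand (chr3:169764520-169765060), differed from TERT in that most of its union sites recurred in every library. Of its 3 union sites 2 were present in all 8 lists, at 1.84 kb (169762907 to 169763369) and 4.44 kb (169760309 to 169760925) downstream of the TSS. They stood at percentiles 66.3 to 83.3 and 74.4 to 90.3. No region lay closer than 1.69 kb to the TSS in any list. The absence therefore depends on the width of the promoter: within 2 kb, TERC had a region in all 8 lists at a mean percentile of 77.1 ± 6.14 (SD, n = 8). Within 2 kb of any annotated TSS, TERT had one in 6 lists, at 34.8 ± 37.0. These TERT values came from regions beside internal starts, 25902 to 32683 bp downstream of the canonical TSS. Around the canonical TSS of TERT, a region lay within 2 kb only in replicate 1 of 3 groups: unchallenged WT, WT 3 h post UV and unchallenged ASH1L-/- cells. Among the neighbours, ACTRT3 had no region at its canonical TSS in any list and MYNN had one in all 8.

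Each telomerase gene was then compared with each ALT-related gene within the lists. In all 12 pairs the ALT-related promoter stood higher in 8 of 8 lists, with mean differences between 72.0 ± 9.92 percentile points (SP100 against TERT) and 95.6 ± 1.75 (SLX4IP against TERC). No p-value is given for these pairs, because a gene without a region counts as 0 and the order then follows from presence alone. The difference from the median of the 6 ALT-related promoters was -91.7 ± 4.99 points for TERT and -93.0 ± 2.03 points for TERC. Genes with the values nearest to TERT over the 8 lists were FOXP3, HTRA4 and ZFP57, each with a promoter region in 1 list. Their mean absolute differences were 0.0162, 0.0225 and 0.0953 percentile points. This nearness rests on absence in the other lists and on 1 region per gene, that of TERT at percentile 11. It describes no further likeness.

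GC content goes along with the presence of a promoter region in these lists, so it is given beside the result. From 250 bp before to 50 bp after the canonical TSS, TERT had 77.3% GC, which 8.36% of protein-coding genes exceeded, and TERC had 58.7%. Among protein-coding genes with 75% to 80% GC, 63.8% had a region at the canonical TSS in all 8 lists and 7.56% in none. Between 50% and 60% GC these shares were 55.1% and 20.4%. CLPTM1L, the upstream neighbour of TERT, had 78.0% GC and a region in 4 lists. POLR2L, picked by hand from the same GC class and not by a rule, had 76.3% GC and a region in no list. It is thus among the 7.56% of that class without a region. ATRX and SLX4IP had the lowest GC of the 8 genes, 51.7% and 54.0%, and were accessible in every list. The part of GC content in the absence at TERT and TERC was not tested. The record numbers of the lists skip between 234 and 397 records, at most 0.13% of a list, and where those lay is not known, so that the absence holds for the lists analysed here.

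**Figure D2:**
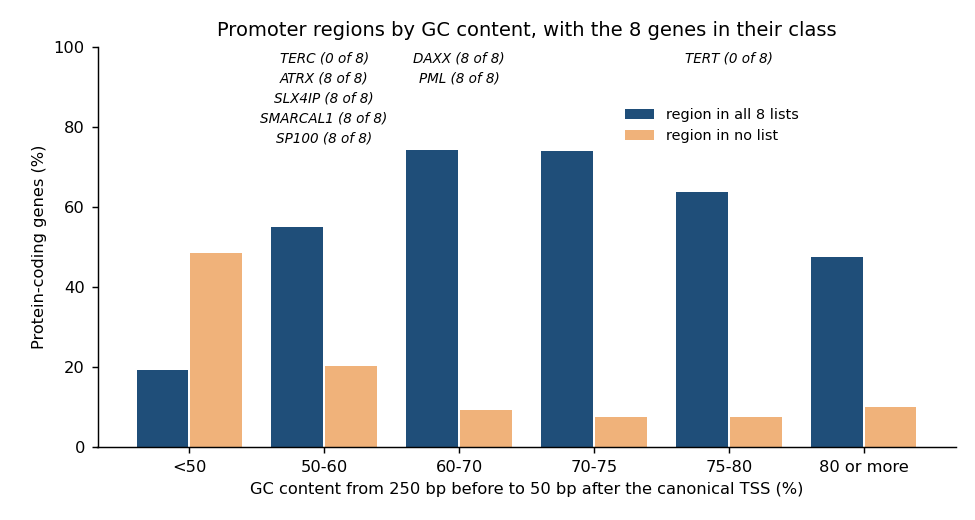
Share of protein-coding genes (y axis, %) with a region at the canonical TSS in all 8 lists (dark bars) or in no list (light bars), by the GC content of the promoter (x axis, %), with the 8 genes and their number of lists written above their class. TERT stands in a class in which 7.56% of genes had no region, and TERC in one in which 20.4% had none.

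Among the ALT-related genes, ATRX, which encodes a chromatin remodeller, had a strong promoter in a sparsely covered gene. ATRX (ENSG00000085224.23) spans chrX:77504880-77786233 on the minus strand. In WT cells its promoter region stood at percentiles 96.6 and 96.1 without UV and at 91.3 and 98.1 after UV. In ASH1L-/- cells the percentiles were 95.1 and 84.5 without UV and 93.3 and 98.1 after it. The lowest value belonged to the shallowest library, and the groups overlapped. With the promoter included, the window held 0.944 ± 0.511 regions per 100 kb (SD, n = 8), whereas the median of 1497 protein-coding genes of 200 kb or more was 5.69. Only 2.07% of those genes were sparser. Long genes of the X chromosome had a median of 1.51, and 15 of 59 were sparser than ATRX.

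No region was called in any list between 77565261 and 77749866, a stretch of 184.6 kb that makes up 65.6% of the gene. Exons 2 to 28 of the 35 exons of the canonical transcript lie within it. As large an empty share was found in 0.534% of the long genes, and their median longest empty stretch was 28.4 kb. SLX4IP, at 201.5 kb the other long gene of the 8, had 12.4 ± 1.7 regions per 100 kb, and 93.1% of long genes were sparser. Peak lists do not tell closed DNA from DNA that a cell line lacks, and these cannot be told apart here.

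**Figure D3:**
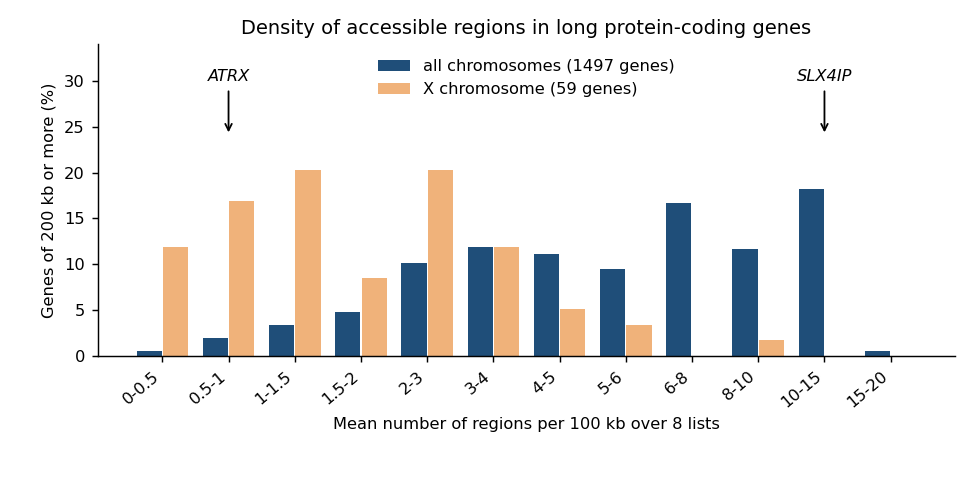
Share of protein-coding genes of 200 kb or more (y axis, %) by their mean number of regions per 100 kb over the 8 lists (x axis, classes of unequal width), for all chromosomes (dark bars) and the X chromosome (light bars). Arrows mark the classes of ATRX, at 0.944 regions per 100 kb, and of SLX4IP, at 12.4.

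DAXX, the partner of ATRX in placing histone H3.3, is a short gene in a dense neighbourhood (ENSG00000204209.13, chr6:33318558-33323016, minus strand). Its promoter region stood at percentiles 96.9 and 97.2 in unchallenged WT cells and 98.1 and 96.2 in unchallenged ASH1L-/- cells. After UV it stood at 91.2 and 82.9 in WT cells and at 93.0 and 90.2 in ASH1L-/- cells. All 4 UV lists lay below all 4 unchallenged lists, with means of 97.1 ± 0.763 and 89.3 ± 4.45 (SD, n = 4 each). The difference of -7.76 points gave a two-sided p = 0.0286 in an exact permutation test, the lowest that 4 against 4 can give, and 0.162 after Benjamini-Hochberg adjustment over 17617 genes. It did not hold when regions were ranked by their p-value in place of fold enrichment (difference of -0.499 points, p = 0.0857, exact permutation test).

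DAXX was the only one called lower of the 7 genes with a value, since TERC had none, against 15.6% of all genes. None was called higher, against 2.07%. The median difference over all genes was -2.34 points, so that promoters in general stood lower in the UV lists. Only SLX4IP joined DAXX when the canonical TSS was used, as described below. The local background that enters the fold enrichment at the DAXX promoter was between 9.20 and 25.7 reads in the unchallenged libraries and between 22 and 32.3 reads after UV. Its part in the lower percentile was not tested.

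A second DAXX region appeared after UV. At 33320407 to 33321010, in an intron 2.286 kb downstream of the canonical TSS and within 1 kb of another DAXX start, all 4 UV lists had a region and no unchallenged list had one. It stood at percentiles 57.1 and 50.1 in the WT lists and at 39.2 and 55.2 in the ASH1L-/- lists. SP100 held 2 further sites of this kind. One, at 230418545 to 230418793, lies 2.47 kb downstream of the canonical TSS and stood at percentiles 60.9 and 41.4 in WT and 50.1 and 80.4 in ASH1L-/- cells. The other, at 230520675 to 230521205, lies 104.7 kb downstream and stood at 37.4 and 26.0 in WT and 55.1 and 62.3 in ASH1L-/- cells. The 150 bases around their summits (hg38, plus strand) are shown as the sites whose presence separated the UV lists from the unchallenged ones, again with TGANTCA in capitals.
DAXX (chr6:33320598-33320747): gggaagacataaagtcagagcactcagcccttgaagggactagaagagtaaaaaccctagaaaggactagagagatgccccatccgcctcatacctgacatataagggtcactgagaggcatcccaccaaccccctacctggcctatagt
SP100, first site (chr2:230418600-230418749): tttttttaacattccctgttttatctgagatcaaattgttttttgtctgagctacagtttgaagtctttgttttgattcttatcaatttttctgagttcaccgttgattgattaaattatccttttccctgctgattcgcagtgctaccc
SP100, second site (chr2:230520864-230521013): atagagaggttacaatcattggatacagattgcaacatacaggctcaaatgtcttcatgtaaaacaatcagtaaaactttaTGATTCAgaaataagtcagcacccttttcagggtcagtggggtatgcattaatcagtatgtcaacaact
Only the second SP100 site held TGANTCA, there as TGATTCA and not as TGACTCA. Of all sites gained in this way, 21.1% held TGANTCA and 14.5% held TGACTCA. The 3 sites were 1.69% of the 177 sites in the 8 windows, while 0.686% of all union sites were gained so. None was lost after UV, where the background was 0.0969%. None was present in all ASH1L-/- lists and no WT list, or the reverse, with backgrounds of 0.187% and 0.0769%. A region that enters a list may have lain just under the threshold in the others, and the lists do not give its signal there.

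SLX4IP (ENSG00000149346.15, chr20:10435305-10636829, plus strand), whose protein binds the nuclease scaffold SLX4, had the most union sites, 57, with 13 of them in all 8 lists. Its window of 211.5 kb held 12.4 regions per 100 kb, fewer than those of DAXX (25.9), TERC (21.3), TERT (14.7) and PML (13.1). The strongest SLX4IP site lay in an intron 76.3 kb downstream of the TSS (10511170 to 10511992), at percentiles 94.5 to 98.8. At the canonical TSS the region stood at percentiles 86.7 and 86.5 in unchallenged WT cells and 90.4 and 82.3 in unchallenged ASH1L-/- cells. After UV it stood at 74.6 and 57.8 in WT cells and at 75 and 79.3 in ASH1L-/- cells. The 2 conditions did not overlap, with means of 86.5 ± 3.32 and 71.7 ± 9.46 (SD, n = 4 each) and a difference of -14.8 points (p = 0.0286, exact permutation test, two-sided, adjusted p = 0.168 by Benjamini-Hochberg over 16453 genes). By this measure 15.3% of all genes were called lower. The region is shared with MKKS, a gene in the opposite orientation, and its summit lay at -917 to -882 bp from the SLX4IP start in 6 of 8 lists. It lay at -67 bp in replicate 2 of WT cells and at -174 bp in replicate 2 of ASH1L-/- cells, both 3 h post UV. The percentiles therefore did not refer to the same summit in every list.

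The second SLX4IP promoter behaved otherwise. A region beside an internal TSS, 163.6 kb downstream (10598626 to 10599397), was the strongest promoter region of the gene in all 8 lists. It stood at percentiles 91.8 to 96.6 without UV and 94.7 to 97.1 after UV, with overlapping values and a difference of 1.55 points (p = 0.286, exact permutation test, two-sided). When ranked among promoter regions only, it was higher after UV by 7.46 points with no overlap (p = 0.0286, exact permutation test), so that the direction at SLX4IP depended on which start site was taken. The share of all genes separated under this ranking was not determined.

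**Figure D4:**
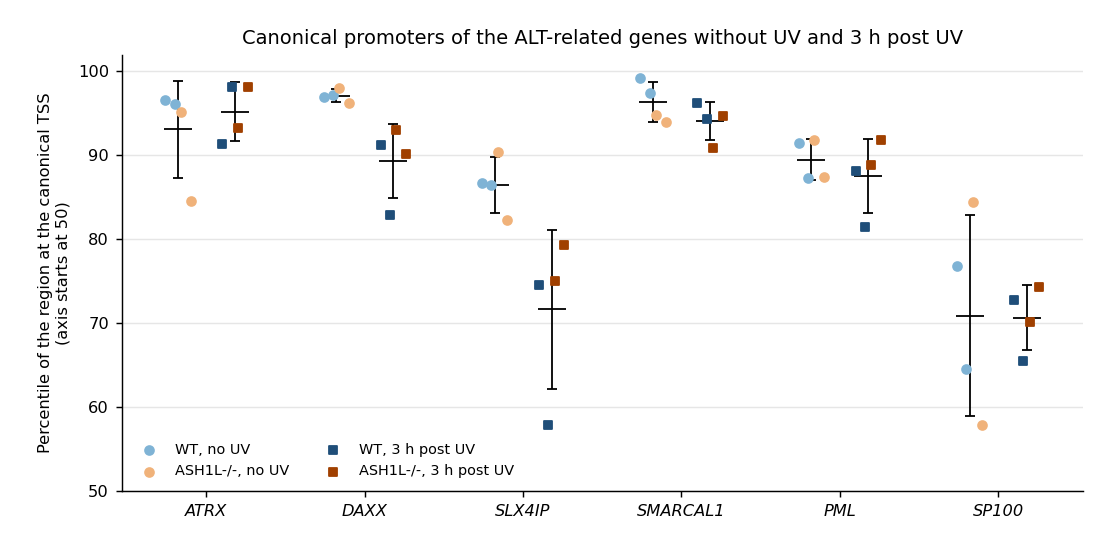
Percentile of the region at the canonical TSS of the 6 ALT-related genes (y axis, starting at 50) in unchallenged libraries (circles) and 3 h post UV (squares), 1 point per library, with the mean and SD of 4 libraries in black. DAXX and SLX4IP are lower in all 4 UV libraries, and the other 4 genes overlap.

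SMARCAL1 (ENSG00000138375.14, chr2:216412383-216483053, plus strand), which encodes an annealing helicase that remodels stalled forks, had a promoter region at percentiles 99.2 and 97.4 in WT cells without UV and at 96.3 and 94.3 after UV. In ASH1L-/- cells it stood at 94.9 and 93.9 without UV and at 90.9 and 94.7 after UV. The values of the genotypes overlapped slightly, with means of 96.8 ± 2.03 in WT and 93.6 ± 1.83 in ASH1L-/- cells (SD, n = 4 each; two-sided exact permutation p = 0.0857). They separated when only promoter regions were ranked (-8.27 points) or regions with a q-value of 0.01 or below (-5.17 points), both with p = 0.0286 in the exact permutation test. This is the lowest p that 4 against 4 can give, and the share of all genes separated under these rankings was not determined. A further site of the gene, 66.0 kb downstream in an exon, was present in all 8 lists at percentiles 85.8 to 96.9.

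PML and SP100 encode proteins of the PML nuclear bodies, and SP100 had the weakest promoter of the 6. PML (ENSG00000140464.20, chr15:73994673-74047827, plus strand) stood at percentiles 81.5 to 91.9 at its canonical TSS, at 88.5 ± 3.44 on average (SD, n = 8). In the 4 WT lists its strongest promoter region was another one, near an internal TSS 46.0 kb downstream, and in the 4 ASH1L-/- lists it was that at the canonical TSS. The margin was narrow in some lists, as in replicate 1 of unchallenged ASH1L-/- cells (91.8 against 91.4). It was wider in others, as in replicate 1 of ASH1L-/- cells 3 h post UV (88.9 against 79.8). Neither the strongest region (p = 0.343) nor that at the canonical TSS (p = 0.229) was called for the genotype in the exact permutation test. The share of all genes with such a switch was not determined. That internal region was present in all 8 lists, at percentiles 88.3 to 93.2 in WT and 79.8 to 91.4 in ASH1L-/- cells, which overlapped. SP100 (ENSG00000067066.17, chr2:230415942-230545606, plus strand) had percentiles of 76.8 and 64.6 at its canonical TSS in WT cells without UV and of 72.8 and 65.6 after UV. The ASH1L-/- cells gave 84.5 and 57.9 without UV and 70.1 and 74.3 after it. The highest and the lowest value came from the deepest and the shallowest library, which are replicates of one group.

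By mean percentile over the 8 lists, the order was SLX4IP (95.6 ± 1.75), SMARCAL1 (95.2 ± 2.47), ATRX (94.2 ± 4.53), DAXX (93.2 ± 5.09), PML (90.6 ± 2.14) and SP100 (73.4 ± 9.01), followed by TERT and TERC. The first 4 lay within their spread of each other. At the canonical TSS SLX4IP fell to 79.1 ± 10.3 and stood between PML and SP100. The 13492 protein-coding genes that had a promoter region in all 8 lists had a median of 88.5. SLX4IP stood above 77.6% of them, SMARCAL1 above 75.8%, ATRX above 70.8%, DAXX above 67.0%, PML above 57.6% and SP100 above 16.9%. At the canonical TSS, among genes with a region there in all 8 lists, PML stood above 50.9% and SLX4IP above 28.0%.

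**Figure D5:**
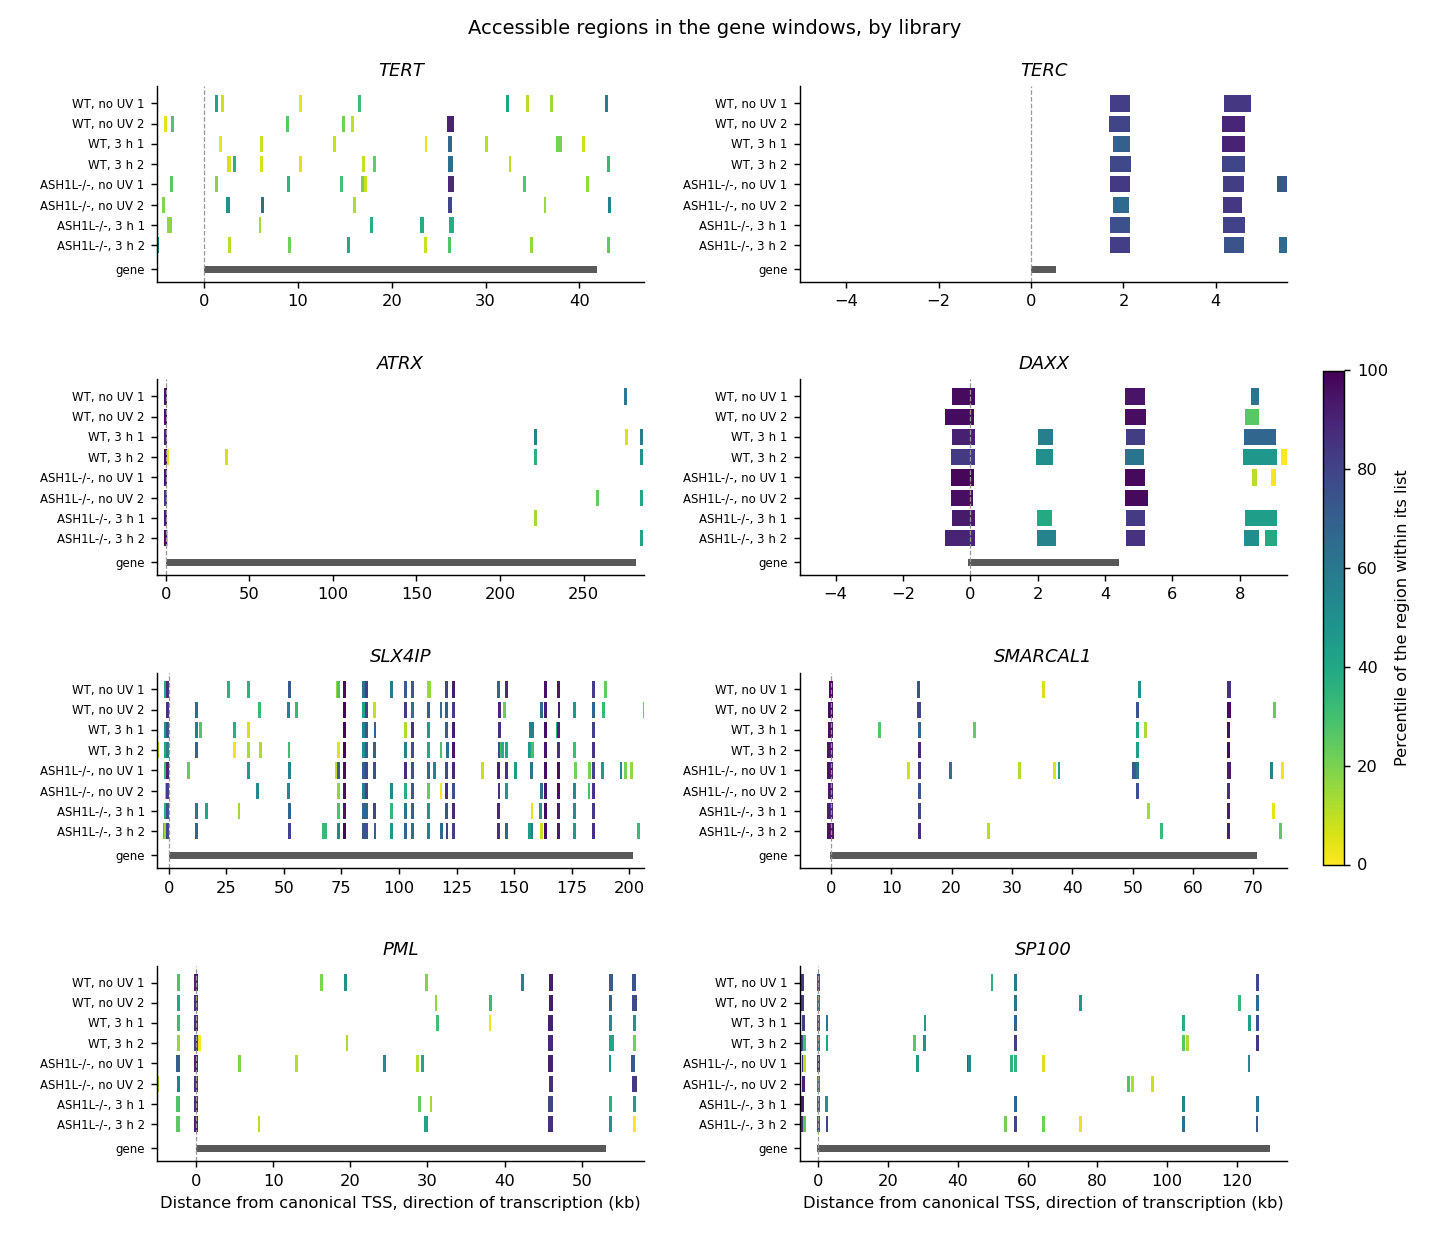
Accessible regions in the 8 windows, 1 line per library, by distance from the canonical TSS in the direction of transcription (x axis, kb), coloured by percentile within the list, with narrow regions widened to be visible and the gene drawn as a grey bar. TERT shows pale, scattered regions and 1 recurrent site at 26.2 kb, TERC 2 recurrent sites at 1.84 and 4.44 kb, and ATRX a gap of 184.6 kb.

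No member was called for the genotype in promoter percentile, either higher, against 2.05% of all genes, or lower, against 0.914%. No UV by genotype contrast was called, with the largest at ATRX, where the WT change with UV less the ASH1L-/- change was -7.52 points (p = 0.286, exact permutation test, two-sided). The lowest p was that of PML (-3.88 points, p = 0.171, exact permutation test). The number of regions in the windows was not called for UV (backgrounds of 1.36% higher and 1.11% lower) or for the genotype (1.51% and 1.48%). DAXX came nearest, with 3.00 ± 0.816 regions without UV and 4.50 ± 0.577 after UV (SD, n = 4 each; two-sided exact permutation p = 0.0857). Of all union sites in the windows, 56.5% occurred in 1 list and 15.8% in all 8, beside 60.5% and 11% over the genome.

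Around these 8 genes, the promoters of the wider telomere machinery were accessible in every list when any annotated TSS was taken. In 5 lists of genes, chosen with earlier results of these data known, all 54 genes had a promoter region in all 8 lists, beside the 67.6% given above. At the canonical TSS, SP140 had a region in 0 of 8 lists and the other 53 genes had one in all 8. Of 12 genes for the assembly of telomerase, which fold, modify and carry its RNA, the lowest was NAF1 at 84.9 ± 5.57 and the highest RUVBL1 at 99.8 ± 0.201 (mean percentile ± SD, n = 8). Shelterin, which caps the telomere, and the CST complex, which fills in its C-rich strand, ranged over 9 genes from CTC1 at 73.9 ± 9.11 to TERF1 at 99.3 ± 0.333. The 18 genes of ALT recombination ranged from SLX4 at 59.8 ± 10.9 to EXO1 at 99.7 ± 0.289.

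The 8 genes listed for histone H3.3 and its chaperones include SETDB1 and CBX5, which encode heterochromatin proteins and not H3.3 chaperones. This list ranged from H3-3A at 79.6 ± 4.67 to CBX5 at 99.2 ± 0.519. The 7 genes of the SP100 family and the PML body ranged from HIPK2 at 42.5 ± 17.3 to MORC3 at 99.1 ± 0.720. After UV, 16 of the 54 promoters stood lower with no overlap (29.6%), among them MUS81, a nuclease subunit, by -14.0 points, and NR2F2, a nuclear receptor, by -13.2 points. The share was 20.1% among protein-coding genes with a promoter region in all 8 lists. By list these were 3 genes of telomerase assembly, 4 of shelterin and CST, 6 of ALT recombination, 3 of the histone H3.3 list and none of the SP100 family. SHQ1, an assembly factor, was higher by 3.09 points, which makes 1.85% of the 54 against 1.67% of the protein-coding genes with a promoter region in all 8 lists. NOP10, a protein of the telomerase RNA particle, was higher in ASH1L-/- cells by 3.97 points (1.85% against 1.86%), and none of the 54 was lower (against 0.815%). These shares are near the background. MUS81, NR2F2, SHQ1 and NOP10 were chosen for naming after their values were seen.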

How the data were processed

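The authors trimmed reads with cutadapt 1.9.1, aligned them with Bowtie2 2.4.5 to hg38 without chromosome Y, filtered them with SAMtools 1.7, bedtools 2.29.2 and Picard, and called peaks in each library with MACS2 2.2.7.1. Duplicates, reads of mapping quality under 30, blacklisted regions and mitochondrial reads had been removed. The deposited lists give fold enrichment as a ratio to the local background, p-values and q-values as deposited on a −log10 scale, and an integer score, which was not used. Signal is not normalised between libraries.

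Records with the same interval were merged and ranked by fold enrichment within a list. Genes and start sites came from GENCODE v44. Conditions were compared by exact permutation tests over libraries with Benjamini-Hochberg adjustment over all genes, in Python 3.11.15 with numpy 2.4.6, pandas 2.3.3 and scipy 1.17.1, tested on simulated data. A gene was called when the unadjusted p was at or below 0.05. Replicates are separate libraries. Pileup and background were recovered from fold enrichment and p. All 8 genes, their neighbours, the lowest and highest gene of each pathway list, the genes nearest to TERT and condition-specific sites were named by rule. The members and lists were chosen with earlier results of these data known. One marker of another cell type is not reported here. Alternatives changed the ranking, thresholds, promoter width, start site and libraries.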

Additional observations from a re-analysis of the deposited data

How the results depend on the processing

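Presence at the 6 ALT-related promoters did not change under the alternatives run, whereas the calls for UV and genotype depended on the settings. The TERC difference from the ALT-related median, -93.0 points, was -84.5 among promoter regions only, -90.0 at a q-value of 0.01 or below, -15.9 within 2 kb and -89.7 at the canonical TSS. That of TERT, -91.7, was -83.4 among promoter regions only. It was -58.2 within 2 kb of any annotated TSS, which took in regions beside internal starts of TERT. Leaving out 1 library gave -92.6 to -93.4 for TERC and -91.0 to -93.3 for TERT. Within 2 kb, where TERC had a region in all 8 lists, 5 of the 6 ALT-related promoters stood above it in the paired exact permutation test. The number of genes with a UV difference in promoter percentile, 1, was 0 when ranked by −log10 p, 2 among promoter regions only, 2 at the canonical TSS and 0 to 1 without 1 library, the 0 arising without any one of the 4 unchallenged libraries. For the genotype it was 0, but 1 among promoter regions only, 1 at a q-value of 0.01 or below and 0 to 1 without 1 library (SMARCAL1, without WT 3 h post UV replicate 2). For UV and the number of regions it was 0, but 2 at a q-value of 0.01 or below (DAXX and SP100), 1 over the gene span only, 1 with every summit counted and 0 to 1 without 1 library (DAXX, without unchallenged ASH1L-/- replicate 1). Except for UV at the canonical TSS, the share of all genes called under these alternatives was not determined. The DAXX difference was -5.61 to -8.99 without 1 library. The cause was not tested.

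With the replicate number as a block, no gene was called for UV (0), because the smallest p is then 0.0556, the value of DAXX and SLX4IP. Whether libraries of the same number share an origin is not stated. Deviations of same-numbered libraries correlated at -0.0464 to 0.0750, which does not settle it.

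Chosen after seeing the data, the SLX4IP difference at the canonical TSS was -10.2 to -17.4 without 1 library, -7.28 by −log10 p and -11.2 among promoter regions only (p = 0.0571, exact permutation test). The 3 sites gained after UV were 3 to 4 without 1 library and 3 at both q-value thresholds. These were 1.69% to 2.26% of the sites in the windows, beside 0.76% to 1.14% of all union sites. The SLX4IP difference was 1.55 with any TSS and -14.8 at the canonical TSS, so its direction depended on the start site. A low pileup, down to 5 reads at a summit, limits the weakest regions.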
